A study of Mus musculus with 5 samples.

Results

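The data described here are the levels of 8 genes of transcription factors that mark retinal progenitors and glia, *Sox2*, *Sox8*, *Sox9*, *Lhx2*, *Pax6*, *Rax*, *Six3* and *Six6*, out of 33696 genes in the count matrices. They were chosen by symbol for their known roles, and each symbol matched 1 gene. Counts of unique molecular identifiers (UMIs, 1 per captured transcript) came from single cells of mouse retinas. Cells were tdTomato+ and sorted by FACS from Glast-CreERT2; Rosa26-Ai65 mice on a C57BL/6J background, of both sexes pooled and 12 to 20 weeks old, 56 days after injection of an AAV. In these mice tdTomato needs both Cre, given by tamoxifen under the glial *Glast* promoter, and the FlpO recombinase that the AAV brings in, and this holds for both groups. The control group received ShH10-GFAP-*mKate2* AAV, which carries a red fluorescent protein, with 16 retinas pooled. The other group received ShH10-GFAP-*Yap5SA* AAV, which carries a form of YAP with 5 serines changed that escapes inhibition by Hippo signalling, with 21 retinas pooled. *GFAP* is a promoter active in glia and ShH10 a capsid that favours Müller glia (MG). Nothing in the labels says that the libraries of a group came from separate animals, so p-values measure the spread between libraries, which may be technical.

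MG are the radial glia of the retina, and they arise late from the same progenitors that make its neurons. They keep many transcription factors of those progenitors in the adult. SOX2, SOX8 and SOX9 are HMG-box proteins, of which SOX2 maintains progenitors and SOX8 and SOX9 form a pair of close relatives that act in glia. LHX2 is a LIM homeodomain protein needed for the optic vesicle and for MG. PAX6, a paired-box protein, RAX, a homeodomain protein, and SIX3 and SIX6, sine oculis relatives, belong to the set of factors that specify the eye field. In the mature retina PAX6 is also known from amacrine and ganglion cells, RAX from photoreceptors and SOX9 from the pigment epithelium.

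Of the 5 libraries, *Yap5SA* AAV replicate 2 shares 1361 cell barcodes with replicate 1, which is 99.78% of the smaller library, and was left out. The other 4 held between 13132765 and 50938304 UMIs in 1407 to 7729 cells. A cell passed with at least 1000 UMIs with no more than 15% of them mitochondrial, and was called MG when *Glul*, *Rlbp1*, *Slc1a3*, *Clu* and *Aqp4* together made up at least 0.5% of its UMIs. This gave 6540 MG of 10749 passing cells. Values for single libraries are given in the order *mKate2* AAV replicate 1, *mKate2* AAV replicate 2, *Yap5SA* AAV replicate 1 and *Yap5SA* AAV replicate 3. There were 1498, 2898, 803 and 1341 MG with medians of 6194.5, 2918.5, 10778 and 2920 UMIs. The labels call every library MG, yet 1203 rod-like, 58 cone-like, 438 bipolar-like, 211 amacrine-like and 1113 microglia-like cells were found by their markers, the neurons almost all in *mKate2* AAV replicate 2 and *Yap5SA* AAV replicate 3. Those 2 libraries were counted with Cell Ranger 9.0.1 and the other 2 with 8.0.0 per the file headers. The version therefore divides each AAV group, and it cannot be told apart from anything else those library pairs share. In *mKate2* AAV replicate 2 and *Yap5SA* AAV replicate 3, 23 and 60 cells held at least 1% of UMIs from pigment epithelium genes, and all but 1 of them also lay within the MG limit. The level used below is CPM, the UMIs of a gene per 1000000 UMIs of the cells summed. Counts come from the 3′ end of transcripts, so levels are compared between cells and not between genes.

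On GRCm39 the genes other than *Rax* are *Sox2* at chr3:34704554-34706610, *Sox8* at chr17:25784634-25789726, *Sox9* at chr11:112673009-112678586, *Lhx2* at chr2:38229293-38259759, *Pax6* at chr2:105499234-105530952, *Six3* at chr17:85920640-85936730 and *Six6* at chr12:72986666-72991673. *Sox2* lies inside the noncoding gene *Sox2ot* on the same strand, and *Pax6*, *Six3* and *Rax* are overlapped by *Pax6os1*, *Six3os1* and *Raxos1* on the opposite strand.

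Windows of 300 bases around annotated starts, 250 before and 50 after, were taken from RefSeq on GRCm38.p6, with 8 windows for 6 of the 8 genes. 4 are shown because *Pax6*, *Six6* and *Sox2* differed in which cells carried their transcripts, and because they hold the letters searched for on both strands. Capitals mark ACAAAG or CTTTGT, the core letters that SOX proteins bind, and CCAAT or ATTGG, the box of NF-Y.
Sox2, chr3:34649745-34650044, plus strand: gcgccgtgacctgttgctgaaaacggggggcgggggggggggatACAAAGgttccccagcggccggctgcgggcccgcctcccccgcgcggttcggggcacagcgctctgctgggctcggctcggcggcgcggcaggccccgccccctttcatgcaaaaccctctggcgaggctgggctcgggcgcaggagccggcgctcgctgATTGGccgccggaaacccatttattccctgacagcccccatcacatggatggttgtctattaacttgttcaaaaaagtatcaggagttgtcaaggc
Pax6, first start, chr2:105668646-105668945, plus strand: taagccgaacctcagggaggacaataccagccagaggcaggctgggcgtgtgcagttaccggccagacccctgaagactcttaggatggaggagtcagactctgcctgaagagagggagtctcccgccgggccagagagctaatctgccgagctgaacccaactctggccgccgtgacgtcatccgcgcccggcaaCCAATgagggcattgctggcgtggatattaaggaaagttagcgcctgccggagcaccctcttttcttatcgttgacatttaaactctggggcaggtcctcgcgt
Pax6, second start, chr2:105682213-105682512, plus strand: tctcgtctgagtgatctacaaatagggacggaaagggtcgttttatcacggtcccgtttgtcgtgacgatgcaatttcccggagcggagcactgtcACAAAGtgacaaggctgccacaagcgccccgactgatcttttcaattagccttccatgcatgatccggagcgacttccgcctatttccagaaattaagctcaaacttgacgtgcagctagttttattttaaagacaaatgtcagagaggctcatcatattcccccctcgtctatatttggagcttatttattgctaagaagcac
Six6, chr12:72939632-72939931, plus strand: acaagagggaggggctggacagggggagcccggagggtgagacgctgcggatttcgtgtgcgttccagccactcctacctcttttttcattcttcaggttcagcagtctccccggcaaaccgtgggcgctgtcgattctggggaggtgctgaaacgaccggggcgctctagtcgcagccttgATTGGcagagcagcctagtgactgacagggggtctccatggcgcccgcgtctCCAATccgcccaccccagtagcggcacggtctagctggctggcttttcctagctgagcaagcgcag
ACAAAG was in 2 of the 8 windows, those of *Sox2* and the second start of *Pax6*, and in 18.7% of 32851 such windows in the table. CCAAT was in 4 of the 8, those of *Sox2*, *Six3*, *Six6* and the first start of *Pax6*, and in 37.4% of all windows. The homeodomain core TAATTA was in 0 of the 8 and in 5.29% of all windows. The SOX and CCAAT letters were searched without overlap between them, and a match is a description of the sequence only.

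Across the cell classes *Sox2*, *Sox8*, *Lhx2* and *Sox9* were high in MG and low in every class of neurons. *Lhx2* and *Sox9* were also carried by pigment-epithelium-like cells. *Rax* was found in MG and, at a lower mean level, in photoreceptor-like cells. In *mKate2* AAV replicate 2, however, cone-like cells had 98.2% of the *Rax* level of MG. *Pax6*, *Six3* and *Six6* were carried by MG and by classes of neurons. Sums of UMIs per class and library with at least 20 cells were compared in 1 fit with the library as a term (edgeR quasi-likelihood test, Benjamini-Hochberg over 16763 genes, threshold 0.05). MG were higher than rod-like cells for 8 of 8 factors, with 29.1% of all genes higher, and higher than microglia-like cells for 8 of 8, with 30.4% of all genes higher. Against bipolar-like cells it was 8 of 8, with 23.5% of genes higher, against cone-like cells 7 of 8, with 20% higher, and against amacrine-like cells 6 of 8, with 22% higher. The median log2 difference over all genes lay between 0.04 and 0.34 in the 5 comparisons. Neurons were measured in 1 library of each AAV, so these comparisons rest on 2 libraries for every class but MG and microglia-like cells.

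**Figure D1:**
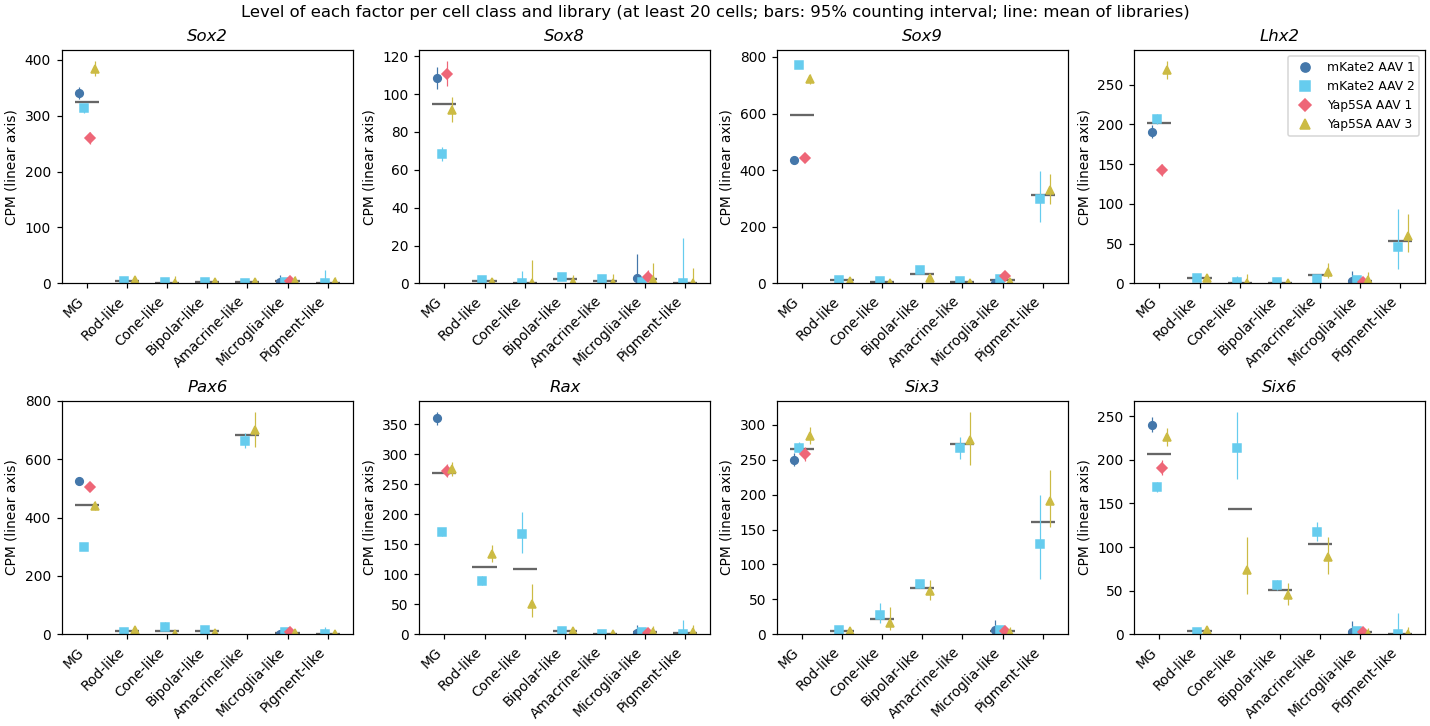
Level of each factor in CPM (linear axis) in MG and in rod-, cone-, bipolar-, amacrine-, microglia- and pigment-epithelium-like cells, 1 point per library with at least 20 cells, with its 95% counting interval and a line at the mean. *Sox2* and *Sox8* stand above 0 mainly in MG, whereas *Pax6* and *Six3* are at 663 and 701 CPM and at 266 and 279 CPM in amacrine-like cells.

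*Sox2* was at 340.4, 314, 259.7 and 384 CPM in MG of the 4 libraries, a mean of 324 ± 52.0 (SD, n = 4). In rod-like cells it was at 3.80 and 5.26, in bipolar-like cells at 3.24 and 1.64 and in amacrine-like cells at 0.963 and 2.56 CPM in *mKate2* AAV replicate 2 and *Yap5SA* AAV replicate 3. No library of MG overlapped any other class, and the log2 difference was 6.38 (SE 0.40, adjusted p = 3.38e-08) over rod-like and 8.19 (SE 0.49, adjusted p = 2.16e-08) over amacrine-like cells in the edgeR fit. The 57 cone-like cells of those libraries held 1 UMI of *Sox2* in 873935.

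*Lhx2* was likewise a gene of MG, with 191, 207, 142.5 and 268 CPM in MG in the same order and a mean of 202 ± 51.7 (SD, n = 4). Outside MG it was highest in pigment-epithelium-like cells, at 45.3 and 60.1 CPM. It was at 6.56 and 7.14 in rod-like, 5.78 and 14.1 in amacrine-like and 1.87 and 0 in bipolar-like cells. MG were again above every other class in every library, by 5.29 (SE 0.45, adjusted p = 1.27e-07) over rod-like and 7.37 (SE 0.54, adjusted p = 4.29e-08) over bipolar-like cells on the log2 scale in the same edgeR fit.

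*Sox8*, the glial relative of *Sox9*, was at 108, 68.3, 111 and 91.8 CPM in MG. Cone-like and pigment-epithelium-like cells held 0 of 873935 and 0 of 620810 UMIs from it. Against a floor of 3 counts over each group, MG of the same libraries were at least 23.3-fold and at least 16.6-fold higher, a bound that covers counting error only. In bipolar-like cells it was at 3.49 and 0.822 CPM, and in amacrine-like cells at 2.41 and 0.

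*Sox9* had 435, 773, 443 and 722 CPM in MG, the widest range of the Sox genes there. Pigment-epithelium-like cells were next, with 298 and 330.3 CPM, a mean of 42.0% of that in MG of the same 2 libraries. Without a cluster of MG high in *Sox9*, described below, MG of these libraries had 408 and 427 CPM. As the pigment-epithelium-like cells lie within the MG limit, they were not tested. Bipolar-like cells held 45.7 and 17.3 CPM, above the 11.0 and 9.40 of rod-like and the 8.91 and 1.28 of amacrine-like cells in both libraries. MG exceeded bipolar-like cells by 4.64 on the log2 scale (SE 0.59, adjusted p = 7.35e-06, edgeR). *Sox2* and *Sox8* were at or under 3.49 CPM in bipolar-like cells.

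The UMIs of *Sox9* in bipolar-like cells came from a part of them. When all passing cells were clustered without the 8 factors, 210 bipolar-like cells (47.95%) lay in clusters named bipolar by their markers. Another 223 (50.91%) lay in clusters left without a name. The clusters named bipolar had only 3.332, 5.544, 1.981 and 3.365 CPM of *Sox9*, so its level in bipolar-like cells depends on how these are defined. Within *mKate2* AAV replicate 2, the 155 cells with more UMIs of *Grik1*, a glutamate receptor gene of OFF bipolar cells, than of *Trpm1* and *Grm6*, genes of ON bipolar cells, had 95.7 CPM of *Sox9*, from 303 UMIs in 71 cells (45.8%). In the same cells *Sox2* had 7 UMIs, or 2.21 CPM, whereas in MG of that library the pair were at 773 and 314 CPM. Of the others, the 51 cells with at least 0.2% of UMIs from *Prkca*, which encodes the protein kinase C alpha of rod bipolar cells, had 5.39 CPM of *Sox9* and the remaining 170 cells had 15.5. *Six3* had the same order, at 90.3 CPM in the *Grik1* cells, 15.3 in the *Prkca* cells and 72.3 in the remainder. *Six6* had it too, at 65.7, 35.0 and 54.7. For *Six3* and *Six6* the 95% counting intervals of the *Grik1* cells and the remainder overlapped, whereas for *Sox9* they lay far apart. These subclasses were drawn within 1 library after its values had been seen and have no replicate. In *Yap5SA* AAV replicate 3 only the remaining bipolar-like cells reached 20, and those 38 cells had 8.05 CPM of *Sox9*, 72.5 of *Six3* and 49.6 of *Six6*.

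*Rax* was at 359, 169.7, 272 and 275 CPM in MG, with a mean of 269 ± 77.6 (SD, n = 4). Rod-like cells had 89.2 and 134 and cone-like cells 167 and 50.3 CPM in *mKate2* AAV replicate 2 and *Yap5SA* AAV replicate 3. Rod-like cells were at 52.6% and 48.8% and cone-like cells at 98.2% and 18.3% of the MG of the same library, so the 2 photoreceptor-like classes overlapped. MG were above rod-like cells by 1.21 on the log2 scale (SE 0.41, adjusted p = 0.0214) and above cone-like cells by 1.40 (SE 0.44, adjusted p = 0.0206) in the edgeR fit. Without *mKate2* AAV replicate 2 the first adjusted p was 0.106, and without *Yap5SA* AAV replicate 3 the pair were 0.0941 and 0.372. The other neurons lay far below, with 5.36 and 4.93 CPM in bipolar-like and 0.963 and 0 in amacrine-like cells. In rod-like cells of *mKate2* AAV replicate 2 the UMIs of *Rax* and *Sox2* were 517 and 22, whereas in MG of that library they were 3154 and 5827. The part of free RNA in these counts was not tested.

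*Pax6* was carried by amacrine-like cells as well as by MG. MG had 526, 299.9, 506 and 441 CPM, and amacrine-like cells 663 and 701, both above every library of MG. The fitted log2 difference of MG over amacrine-like cells was -0.56 (SE 0.53, adjusted p = 0.421, edgeR), so the test did not separate them. All other classes were at or under 24.3 CPM, the value of cone-like cells in *mKate2* AAV replicate 2. Amacrine-like cells were divided by genes of the inhibitory transmitters, and both groups carried it. The *Gad1* and *Gad2* group had more UMIs of *Gad1*, *Gad2* and *Slc32a1*, genes of GABA synthesis and transport, than of *Slc6a9*, the glycine transporter gene. The *Slc6a9* group held the rest, including any cells with equal counts. In *mKate2* AAV replicate 2 the 53 cells of the *Slc6a9* group had 715 CPM and the 119 of the *Gad1* and *Gad2* group had 643. In *Yap5SA* AAV replicate 3 the 20 *Slc6a9* cells had 812.

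*Six3* had the narrowest range in MG, at 249.9, 267, 258 and 284 CPM, and amacrine-like cells lay within it, at 266 and 279. The log2 difference was 0.23 (SE 0.28, adjusted p = 0.538, edgeR), and the mean in amacrine-like cells was 98.8% of that in MG of the same 2 libraries. Pigment-epithelium-like cells followed with 129 and 191 CPM, then bipolar-like cells with 71.5 and 61.6 and cone-like cells with 27.8 and 16.8. These classes did not overlap each other in either library. MG were above bipolar-like cells by 2.18 (SE 0.30, adjusted p = 1.52e-05) on the log2 scale. The *Slc6a9* and the *Gad1* and *Gad2* groups of amacrine-like cells of *mKate2* AAV replicate 2 were both at 266 CPM.

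*Six6*, the close relative of *Six3*, was spread over more classes. MG held 240.1, 168.5, 191 and 226 CPM, cone-like cells 214 and 73.8, amacrine-like cells 118 and 88.2 and bipolar-like cells 56.3 and 45.2. Cone-like cells overlapped both MG and amacrine-like cells, and MG were not separated from them (log2 difference 0.87, SE 0.42, adjusted p = 0.117, edgeR). Over amacrine-like cells MG were higher by 1.24 (SE 0.40, adjusted p = 0.0204) and over bipolar-like cells by 2.16 (SE 0.42, adjusted p = 0.000453). The difference from amacrine-like cells missed the threshold in DESeq2 (adjusted p = 0.0622), and so it did in edgeR without *mKate2* AAV replicate 2 (0.0702) or without *Yap5SA* AAV replicate 3 (0.197). Pigment-epithelium-like cells held 0 of 620810 UMIs of *Six6*, which put MG at least 40.8-fold higher at a floor of 3 counts over the group. The same cells carried *Six3*.

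**Figure D2:**
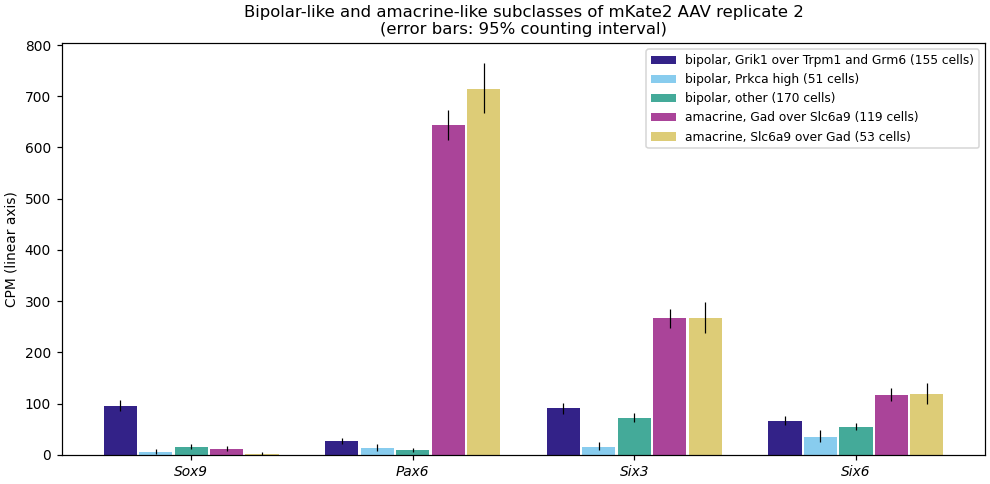
*Sox9*, *Pax6*, *Six3* and *Six6* in CPM (linear axis) in 5 subclasses of bipolar-like and amacrine-like cells of *mKate2* AAV replicate 2, with 95% counting intervals as error bars. *Sox9* reached 95.7 CPM in the *Grik1* bipolar-like cells, whereas *Pax6* was at 643 and 715 CPM in the amacrine-like cells.

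Over the 16 sums of class and library, the level of *Sox2*, *Sox8*, *Sox9* and *Lhx2* moved closely together, with Pearson's r of log2(CPM + 10) between 0.932 and 0.990 for their pairs. *Pax6* went with *Six3* (r = 0.916) and *Six3* with *Six6* (r = 0.870), but *Rax* neither with *Pax6* (r = 0.374) nor with *Six3* (r = 0.329). Among 8015 genes the nearest to *Sox2* were *S1pr3* (r = 0.997), *Gldc* and *Nr2e1* (both r = 0.995), to *Sox8* *Col2a1* (0.994), *Greb1* and *Sbspon*, to *Sox9* *Plpp3* (0.964), *Arhgap42* and *Osmr*, and to *Lhx2* *Lypd6* (0.992), *Tcf7l1* and *Frzb*. *Pax6* was nearest to *Hunk* (0.984), *Colgalt2* and *Antxr1*, *Rax* to *Slc16a1* (0.966), *Kremen1* and *Lman1*, *Six3* to *Frem1* (0.972), *Nckap5* and *Fzd3*, and *Six6* to *Dtna* (0.965), *Pik3ip1* and *Rab11fip4*. These sums share libraries and depth, and with 4 of the 16 from MG any gene of MG scores high.

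Between the AAVs, no factor passed the test in MG. The means for *mKate2* AAV and *Yap5SA* AAV were 327 ± 19.1 and 322 ± 87.8 CPM for *Sox2*, 604 ± 239 and 582.5 ± 197 for *Sox9*, 88.3 ± 28.3 and 101 ± 13.3 for *Sox8*, and 199 ± 11.1 and 205 ± 88.7 for *Lhx2* (SD, n = 2 libraries each). They were 413 ± 160.0 and 473 ± 46.2 for *Pax6*, 264.5 ± 134 and 274 ± 1.83 for *Rax*, 259 ± 12.2 and 271 ± 18.9 for *Six3* and 204 ± 50.6 and 208 ± 25.0 for *Six6*. The libraries of the groups overlapped for 8 of 8 factors. Over all genes 15.4% did not overlap, and 8 genes are too few to fall clearly below that share. In the edgeR fit the log2 differences of *Yap5SA* AAV over *mKate2* AAV ran from -0.18 (SE 0.50) for *Sox9* to 0.12 for *Pax6* (SE 0.33) and *Sox8* (SE 0.27), beside a median of -0.03 over all genes, and every adjusted p was 0.99994. The share of all 15285 genes called was 0% (0 genes, and 30 before adjustment at a p of under 0.05, where DESeq2 had 0 and 52). The standard errors show what 2 libraries in each group could resolve. For *Sox9* a log2 difference of 0.50 was 1 SE.

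Within a Cell Ranger version each AAV had 1 library, and 6 of 8 factors had differences of opposite sign in the 2 versions. *Rax* was lower with *Yap5SA* AAV by -0.40 on the log2 scale in version 8.0.0 and higher by 0.70 in version 9.0.1. For *Lhx2* the differences were -0.42 and 0.38, for *Sox2* -0.39 and 0.29, for *Six6* -0.33 and 0.42 and for *Pax6* -0.06 and 0.56. *Sox9* had 0.03 and -0.10, *Six3* 0.04 and 0.09 and *Sox8* 0.03 and 0.43. With 1 library on each side these differences have no replicate check.

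Cell by cell, factors were counted after thinning each MG to 2000 UMIs, which left 1190, 2028, 710 and 930 MG. *Sox9* was seen in 50.9%, 46.3%, 49.0% and 49.8% of them. *Pax6* was seen in 61.9%, 35.9%, 58.0% and 46.3%, *Rax* in 49.2%, 27.2%, 40.7% and 42.4% and *Sox8* in 19.8%, 11.1%, 18.5% and 13.8%. *mKate2* AAV replicate 2 was the lowest library for these 4 factors, and also for *Sox2* and *Six6*. *Sox2* was in 43.1%, 35.6%, 38.2% and 42.7%, *Lhx2* in 31.0%, 34.1%, 23.9% and 40.7%, *Six3* in 34.2%, 36.1%, 38.9% and 37.1% and *Six6* in 36.0%, 29.0%, 30.6% and 35.6%. *Six3* was higher by 2.84 percentage points with *Yap5SA* AAV in 2 of 2 libraries, with an exact permutation test, two-sided, at p = 0.333, the smallest p that 2 against 2 can give. With the MG limit at 1% that difference was -1.40. For the other factors the exact p was 1.

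At that depth a single MG showed a median of 3 of the 8 factors in every library, and 40.5%, 26.8%, 35.9% and 38.7% of MG showed at least 4. No factor was seen in 1.51%, 9.71%, 4.23% and 4.30% of MG, against 77.5% and 76.8% of rod-like cells in *mKate2* AAV replicate 2 and *Yap5SA* AAV replicate 3. Microglia-like cells, which should lack these genes, had no factor in 80% to 98.1%. Neither *Sox9* nor *Lhx2* was seen in 35.0%, 36.9%, 39.6% and 30.7% of MG. Without thinning those values were 18.4%, 31.9%, 14.3% and 26.3%, so they depend on depth and are not shares of MG that lack both. *Rax* was seen in 84 of 569 rod-like cells (14.8%) of *mKate2* AAV replicate 2 and in 86 of 487 (17.7%) of *Yap5SA* AAV replicate 3, and no other factor was in over 3.87% of them.

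**Figure D3:**
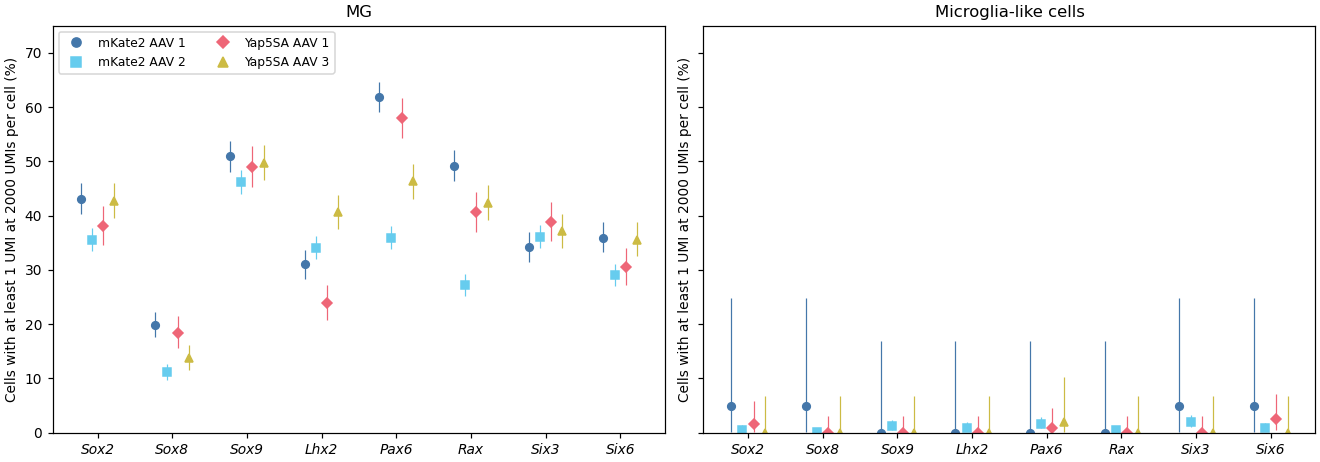
Percent of cells with at least 1 UMI of each factor after thinning to 2000 UMIs per cell, in MG and in microglia-like cells, 1 point per library with its 95% binomial interval. *Pax6* runs from 35.9% to 61.9% of MG and *Sox9* from 46.3% to 50.9%, whereas the microglia-like cells lie near 0.

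The range of *Sox9* in MG narrowed when 1 cluster of cells was set aside. Clusters were made without the 8 factors, and that with the highest summed level of *Fos*, *Jun*, *Junb*, *Egr1* and *Atf3* was examined, a choice made after the values had been seen. It was led by immediate early and stress genes (*Atf3*, *Nr4a1*, *Fosb*, *Dnajb1*, *Hspa1a*) and had 31120 CPM of those 5 genes, against 158.2 to 4438 in the other 15 clusters made mostly of MG. It held 257 of 2898 MG (8.87%) in *mKate2* AAV replicate 2 and 90 of 1341 (6.71%) in *Yap5SA* AAV replicate 3. In the other libraries it held 0 of 1498 and 0 of 803 MG, which allows shares of up to 0.20% and 0.374%. Its MG were deeply read, with medians of 23800 and 26530 UMIs, so in summed levels they weigh more than their share of cells. They held 10197 of the 14365 *Sox9* UMIs in MG of *mKate2* AAV replicate 2 and 3442 of 5652 in *Yap5SA* AAV replicate 3. For *Six3*, which had like levels in and outside the cluster, they held 2234 of 4967 and 736 of 2228 UMIs.

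In the MG of this cluster *Sox9* was at 1217 and 1293 CPM, 2.98-fold and 3.03-fold the level of the other MG of the same libraries. Outside the cluster it was at 435, 408, 443 and 427 CPM in the 4 libraries. They then differed by 1.09-fold between lowest and highest, whereas with all MG they differed by 1.77-fold. The same step narrowed the range of *Sox2*, *Rax* and *Six6* and widened it for *Lhx2* from 1.88-fold to 2.10-fold, *Pax6* from 1.75-fold to 2.01-fold, *Sox8* from 1.62-fold to 1.71-fold and *Six3* from 1.14-fold to 1.15-fold. The mean was 429 ± 15.1 (SD, n = 4) outside the cluster and 593 ± 179 over all MG. MG outside the cluster with at least 8000 UMIs had 442, 379.9, 455 and 401 CPM of *Sox9*. In the libraries with the cluster those MG had medians of 11320 and 14600 UMIs, below the medians of the cluster, and the part of depth in its level was not tested.

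The other factors differed less between the cluster and the other MG. *Sox2* was higher in the cluster, with 368 against 269 CPM in *mKate2* AAV replicate 2 and 516 against 316 in *Yap5SA* AAV replicate 3, and so was *Pax6*, with 347 against 261 and 566 against 376. *Sox8* had 72.7 against 64.6 and 117 against 78.7. Homeodomain factors other than *Pax6* were lower or alike in both libraries. *Six6* had 129 against 201 and 176 against 252, *Lhx2* 169 against 237 and 207 against 299, and *Rax* 155 against 182 and 251 against 287. *Six3* was at 267 against 268 and 276.5 against 288.5 CPM. The cluster was found in 2 libraries and its members were chosen by expression, so these values are a description without a test. Whether the cells differed in the retina or after dissociation was not tested.

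**Figure D4:**
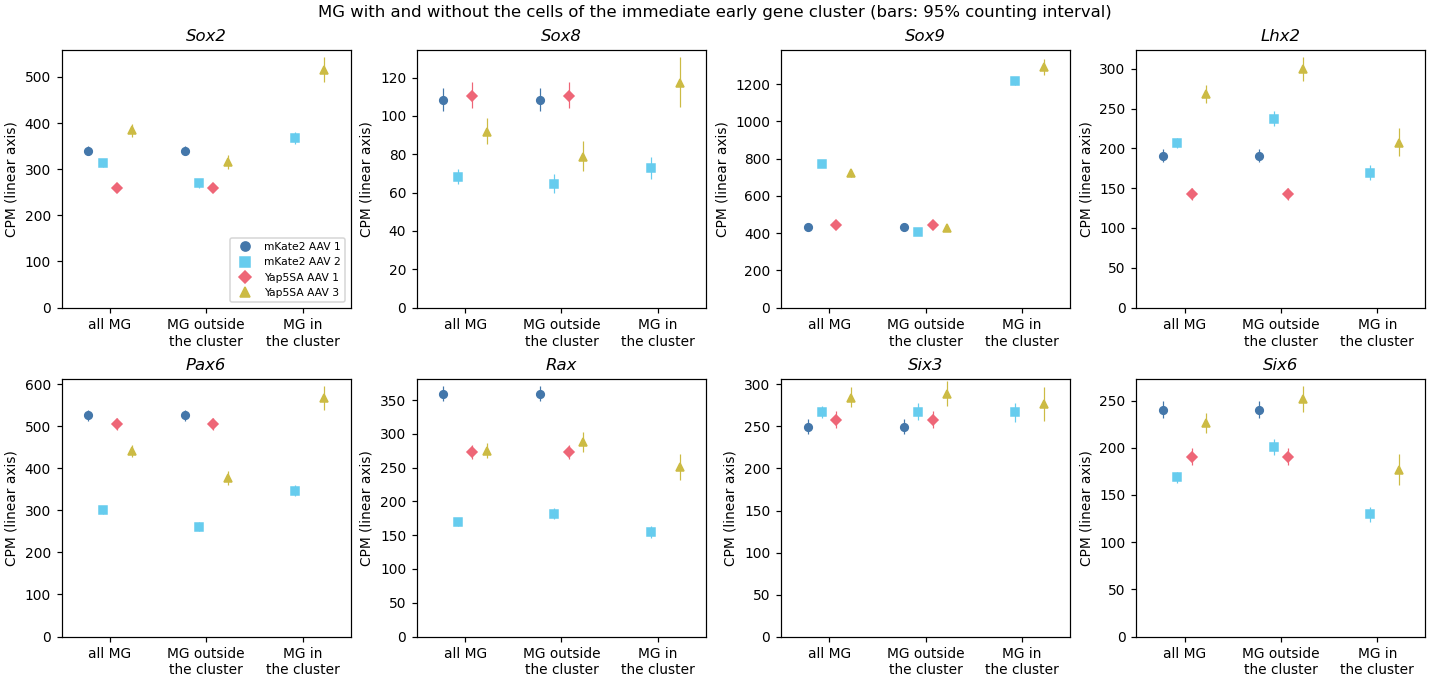
Level of each factor in CPM (linear axis) in all MG, in MG outside the immediate early gene cluster and in MG in it, 1 point per library with 95% counting intervals. The 4 libraries draw together for *Sox9* once the cluster is set aside, at 408 to 443 CPM, and its 2 points in the cluster stand at 1217 and 1293.

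Between the 2 libraries of each Cell Ranger version, *Sox9*, *Sox8*, *Lhx2*, *Pax6* and *Six3* did not overlap, 5 of 8 factors beside 54.9% of all genes. *Sox9* had the largest difference of the 8, higher in version 9.0.1 by 0.90 on the log2 scale (SE 0.31, unadjusted p = 0.0435, adjusted p = 0.386, edgeR with AAV as a term), and the share of genes called was 0%. Without the cluster the value for *Sox9* was 0.17 (SE 0.37, adjusted p = 0.840). The same step raised the number of genes called between the versions from 0 to 69.

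MG of each library were also divided by depth, under 4000 against at least 8000 UMIs. *Sox9* was higher in the deeper MG of every library, with log2 ratios of 0.15, 1.41, 0.50 and 1.20. The large ratios were those of the libraries with the cluster. *Pax6* was higher in the deeper MG of all 4 libraries by 0.29, 0.45, 0.45 and 0.57, whereas *Lhx2* was lower in all 4 by -0.13, -0.43, -0.17 and -0.60 and *Rax* by -0.21, -0.21, -0.08 and -0.47. *Six6* was higher in 1 library, by 0.18, and lower in 3, by -0.59, -0.21 and -0.65.

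In the edgeR fit with the library as a term, 34% of 14309 genes were called by depth, 19.5% higher and 14.4% lower in the deeper MG (Benjamini-Hochberg, threshold 0.05), and 0 of 8 factors were, with a median of 0.17 over all genes. These values are after TMM scaling, which the ratios of CPM do not have. *Lhx2* came nearest, at -0.62 (SE 0.23, adjusted p = 0.0524), then *Six6* at -0.60 (SE 0.24, adjusted p = 0.0692), *Rax* at -0.52 (SE 0.23, adjusted p = 0.0914) and *Sox9* at 0.54 (SE 0.27, adjusted p = 0.132). *Pax6* had 0.16 (SE 0.23, adjusted p = 0.613). These calls were at the edge. DESeq2 called 4331 of the 14309 genes, among them *Lhx2*, *Rax* and *Six6*, lower in the deeper MG (adjusted p = 0.0136, 0.0256 and 0.0392). Without the immediate early gene cluster edgeR called the same 3 (adjusted p = 0.0298, 0.0420 and 0.0460) while *Sox9* was at -0.13. Depth moved with quality, since the median mitochondrial share was 4.73%, 8.08%, 4.35% and 6.88% in the shallower and 2.29%, 1.88%, 2.58% and 0.616% in the deeper MG, and its part in these differences was not tested.

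**Figure D5:**
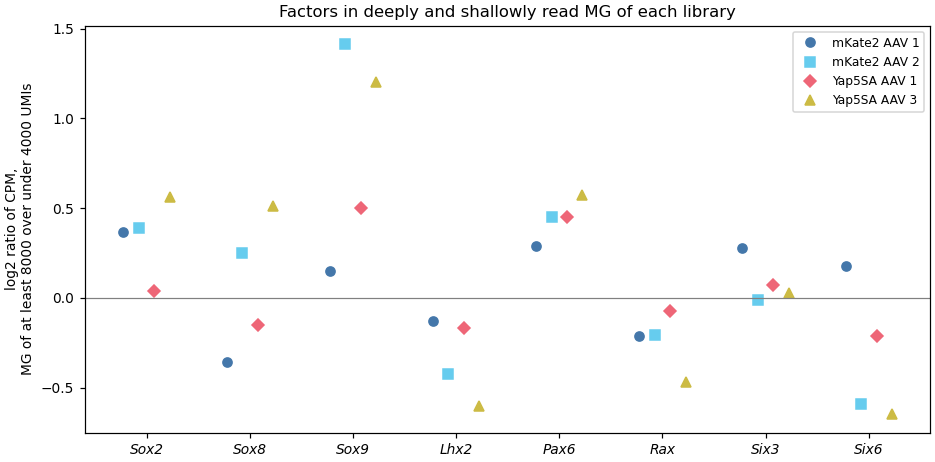
Log2 ratio of CPM between MG with at least 8000 and MG with under 4000 UMIs, for each factor and library. *Sox9* lies at 1.41 and 1.20 in the 2 libraries with the immediate early gene cluster and at 0.15 and 0.50 in the others, and *Lhx2* and *Rax* lie under 0 in all 4.

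Other factors of progenitors and glia, a list of 16 that includes *Hes1*, *Nfia* and *Rorb*, were set beside the 8. Of these, 0 of 16 were called between the AAVs, with a median log2 difference of 0.18 against -0.03 over all genes. Among those whose libraries did not overlap between the groups, as for 15.4% of all genes, *Hes1*, *Nfib* and *Meis1* were higher with *Yap5SA* AAV. *Hes1*, a target of Notch signalling, had 611 ± 184 and 896 ± 145 CPM and *Nfib*, a nuclear factor I gene of late progenitors and glia, had 430.4 ± 54.4 and 528 ± 53.5 (SD, n = 2). *Rorb* had 905 ± 142 and 1020 ± 20.2 and *Nfia* 554 ± 157 and 674 ± 16.9. MG were above rod-like cells for 11 of the 16 and below for 3, with 29.1% and 17.8% of all genes above and below.

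Of 28 relatives of the 8 genes by name, 11 were high enough to test between the AAVs and 0 were called. The libraries of the groups did not overlap for *Sox5*, *Sox6* and *Sox30*, 3 of 11 beside 15.4% of all genes, and the median difference was 0.25. *Sox30* was at only 0.529 ± 0.443 CPM with *mKate2* AAV and 1.20 ± 0.069 with *Yap5SA* AAV (SD, n = 2). *Sox6*, a SoxD gene without an activation domain, had 212 ± 2.79 CPM with *mKate2* AAV and 263 ± 27.4 with *Yap5SA* AAV, and its relative *Sox5* 84.7 ± 3.33 and 109 ± 1.37 (SD, n = 2). *Sox4* had 46.5 ± 21.3 and 58.7 ± 8.12 and *Sox13* 6.92 ± 3.32 and 8.75 ± 2.24. In the comparison by depth 9 relatives were tested. *Sox5*, *Sox6* and *Six5* were called higher in the deeper MG, by 1.62, 1.41 and 1.38 on the log2 scale (edgeR). Of the list of 16, *Hes1*, *Hes5*, *Meis1* and *Nfia* were called higher and *Nfix* lower. Over all genes 19.5% were called higher and 14.4% lower.

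The noncoding genes next to the factors were counted in MG too. *Six3os1* had 221, 143, 202 and 219 CPM, *Sox2ot* 183, 101, 257 and 158, *Pax6os1* 66.1, 49.5, 60.2 and 92.8 and *Raxos1* 15.5, 9.63, 11.1 and 17.0, with 0 of 4 apart between the AAVs. All 4 were called higher in MG than in each of the 5 other classes tested (edgeR), beside 20% to 30.4% of all genes. By depth *Raxos1* was called lower in the deeper MG, by -0.80 on the log2 scale (edgeR, adjusted p = 0.0439), as were 14.4% of all genes. *Six3os1* had 61.9 and 95.9 CPM in amacrine-like and 24.8 and 16.4 in bipolar-like cells. *Pax6os1* had 36.1 and 32.0 in amacrine-like cells, below MG, whereas *Pax6* was above every library of MG there. *Sox2ot* was at 27.0 and 33.7 CPM in bipolar-like cells, where *Sox2* was at 3.24 and 1.64. *Sox2* lies within *Sox2ot* on the same strand, so reads of that stretch could be given to either.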

How the data were processed

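Counts of UMIs per gene and cell, made by the authors with Cell Ranger on GRCm39 from 10x 3′ libraries, were deposited as raw numbers for the barcodes that Cell Ranger took as cells. The labels name Cell Ranger 8.0.0 for all libraries, whereas the file headers name 8.0.0 for 3 and 9.0.1 for 2. Groups were taken from the sample titles. The 8 genes, the lists beside them and the cell limits were chosen with earlier results of these data known. The named genes are the 8 members, the 3 genes nearest to each by correlation, and of each list the 4 with the highest level in MG, those apart between the AAVs and those called. Some results of these lists are not reported here.

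A cell outside the MG limit was named after markers of another class when these made up at least 0.5% of UMIs (rod, microglia), 0.2% (cone, bipolar), 0.03% (amacrine) or 1% (pigment epithelium), from at least 3 UMIs of at least 2 genes, limits set after the data had been seen. 66 cells passing more than 1 limit and 1119 passing none were not used. No doublet caller was run, and MG without cells passing another limit are an alternative. Near the MG limit, 102 to 213 MG of a library held 0.5% to 0.75% and 86 to 229 other cells 0.25% to 0.5% of UMIs from the marker genes. Clusters came from Leiden clustering in scanpy 1.11.5 at resolution 1.5, without the 8 genes.

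UMIs were summed per library and class. Low genes were removed by filterByExpr, libraries were scaled with TMM, and edgeR 4.0.16 in R 4.3.3 gave the tests (quasi-likelihood, Benjamini-Hochberg over all genes). Shares were compared by exact permutation tests in scipy 1.17.1. Fits were also tested on simulated data, in which 200 genes had been changed. For the AAVs 0% of genes changed 2-fold and 50.5% of those changed 8-fold were recovered among 15285, and for MG against rod-like cells 0.5% and 81.5% among 16763. Alternatives were RLE scaling, no filter, DESeq2 1.42.0, other cell limits, depths and thinning, a term for the Cell Ranger version, and leaving out each library or the immediate early gene cluster. Intervals and floors cover counting error only.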

Additional observations from a re-analysis of the deposited data

How the results depend on the processing

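The comparisons of the factors between cell classes were the steadiest. Of 472 values under alternatives, 461 kept direction and side of the threshold, 8 became weaker and 3 stronger, all of them of *Rax* or *Six6*. *Six6* over cone-like cells passed at 1.71 without *mKate2* AAV replicate 2 (adjusted p = 0.0405), at 1.09 with cell classes from clusters (0.0210) and at 1.13 without the immediate early gene cluster (0.030). The numbers of genes called with a library left out ran from 4255 to 8007 for rod-like, 2639 to 5734 for cone-like, 3338 to 7498 for bipolar-like, 3222 to 7075 for amacrine-like and 6874 to 8062 for microglia-like cells, against 7866, 5684, 7376, 6955 and 8765 with all 4, and from 2417 to 5122 by depth, against 4859. The lowest were those without *mKate2* AAV replicate 2 for the neurons. With thinning to 1000 UMIs the number by depth was 3015 of 8620 genes tested, against 4859 of 14309 without thinning.

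By depth, 0 of 8 factors were called in edgeR, 1 with RLE scaling and 1 with thinning to 1000 UMIs. DESeq2, limits of 3000 and 6000 UMIs and leaving out the immediate early gene cluster called 3 each. *Sox2* at -0.12 and *Sox9* at -0.13 turned their direction without that cluster. Of all genes, 4859 of 14309 were called in the main fit, 4868 of 14309 with RLE scaling and 3015 of 8620 with thinning. DESeq2 called 4331 of 14309 and the other limits 5295 of 13948. Genes called between Cell Ranger versions went from 0 to 69 without the cluster.

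No factor was called between the AAVs under any alternative, and 20 of 120 values changed sign about 0. *Rax* turned to 0.0061 at a marker share of 1%, 0.0376 without cells passing another limit, 0.05 with a version term and 0.0088 with thinning, *Six6* to 0.0002 without cells passing another limit and *Sox8* to -0.16 with thinning. With each library left out in turn, the differences ran from -0.45 to 0.16 for *Sox2*, -0.0807 to 0.37 for *Sox8*, -0.60 to 0.45 for *Sox9*, -0.60 to 0.35 for *Lhx2*, -0.13 to 0.46 for *Pax6*, -0.37 to 0.49 for *Rax*, -0.18 to 0.14 for *Six3* and -0.20 to 0.11 for *Six6*. The differences in shares ran in percentage points from -2.68 to 4.88 for *Sox2*, -3.73 to 4.97 for *Sox8*, -1.53 to 3.15 for *Sox9* and -8.60 to 8.11 for *Lhx2*. They ran from -9.67 to 16.3 for *Pax6*, -7.71 to 14.4 for *Rax*, 1.895 to 3.785 for *Six3* and -2.90 to 4.09 for *Six6*. That of *Lhx2* was 6.05 without thinning, and that of *Six3* was -1.40 at a marker share of 1%. The causes were not tested. No paired analysis was possible because the groups share 1 replicate number among the libraries used, and nothing ties the numbers across groups. The Cell Ranger version, with 1 library of each AAV in each, could be used as a block, and with it 0 factors were called. Both the 2 libraries in each group and the depth per cell limit these comparisons.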

Other observations

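The 1119 passing cells that met no marker limit carried all 8 factors. In the 4 libraries, in the order used above, *Sox9* was at 238, 90.7, 313 and 122 CPM in them, *Sox2* at 135.5, 28.4, 144 and 48.7, *Lhx2* at 109, 41.6, 79.1 and 52.1 and *Pax6* at 343, 198, 237 and 342. *Rax* was at 225, 29.2, 155 and 28.3, *Sox8* at 56.8, 9.22, 64.6 and 15.9, *Six3* at 275, 117, 150.3 and 122 and *Six6* at 278, 46.1, 144.5 and 71.4. Each was below the MG of its library but for *Six3* and *Six6* in *mKate2* AAV replicate 1, where MG had 249.9 and 240.1. The libraries with many neurons were the lower ones for *Sox9*, *Sox2* and *Lhx2*. By clusters made without the 8 factors, 309 of the 1119 cells (27.6%) lay in clusters named MG. Clusters named amacrine and microglia held 64 each, and 598 cells (53.4%) lay in clusters left without a name, whose class is not known.

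A cluster of 253 MG, left without a name and led by *2900052N01Rik*, *Pink1* and *Rflnb*, was low in *Sox9* and in other factors. Its 185 MG of *mKate2* AAV replicate 2 had 89.7 CPM of *Sox9*, 125 of *Lhx2*, 225 of *Pax6* and 111 of *Sox2*. All MG of that library had 773, 207, 299.9 and 314. Its MG of under 4000 UMIs outside the immediate early gene cluster had 374, 237.5, 246 and 263.5. *Sox8*, *Rax*, *Six3* and *Six6* were at 18.8, 60.5, 89.7 and 81.4 CPM in the unnamed cluster, against 60.0, 185, 270 and 207 in those shallower MG. The 185 MG were shallow, with a median of 2132 UMIs, and had a median mitochondrial share of 11.8%. The part of depth and RNA quality in these levels was not tested. In *mKate2* AAV replicate 1 and *Yap5SA* AAV replicate 3 the cluster held 37 and 23 MG, with 4 and 1 UMIs of *Sox9*.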
